A study of Homo sapiens with 6 samples.

Results

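Fatty acid synthesis, desaturation and elongation were followed at the level of mRNA through 10 enzymes. ACLY and ACSS2 supply cytosolic acetyl-CoA, and ACACA and FASN build palmitate. The others are the desaturases SCD, FADS1 and FADS2 and the elongases ELOVL5, ELOVL6 and ELOVL7. The 10 enzymes were taken as the rows of the deposited gene table whose Ensembl identifiers map to these symbols. Each has 1 row, 10 of 79302 rows in all. All 10 passed the filter on low counts and are among the 16755 genes tested. The study compared 3 libraries from the human colorectal cancer line HCT116 carrying an shRNA against GDPD5 (shGDPD5) with 3 libraries of the same line carrying a control shRNA (shCtrl). GDPD5 is a glycerophosphodiester phosphodiesterase that acts on glycerophosphocholine. The study describes the cells of both groups as a radioresistant derivative of HCT116 with wild-type p53, harvested 6 h after a dose of 4 Gy, whereas the sample labels state the line and the shRNA only. Which of the GDPD5 shRNAs was sequenced is not given in the sources used here, so the knockdown may rest on a single shRNA, and separate cultures are not stated either, so that the p-values measure the spread between these libraries, which may be technical. The study followed the FASN protein as a readout of lipid synthesis and reported it lower after GDPD5 knockdown in radioresistant cell lines. For that protein comparison the study names no dose or harvest time, so it may not match these libraries in irradiation. These libraries measure mRNA and not protein. The question put to them is how the transcripts of FASN and of the enzymes around it stood after GDPD5 knockdown.

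Fatty acid synthesis starts from citrate exported from mitochondria, which ACLY splits to acetyl-CoA and oxaloacetate, or from acetate, which ACSS2 activates to acetyl-CoA. Acetyl-CoA carboxylase (ACACA) turns acetyl-CoA into malonyl-CoA, and FASN, a multifunctional enzyme, extends an acetyl primer with malonyl units and NADPH to palmitate. Palmitate is lengthened by ELOVL6 and desaturated to monounsaturated acids by SCD, whereas FADS2, ELOVL5 and FADS1 work mainly on polyunsaturated acids that start from the diet. Many of these genes are targets of the sterol regulatory element binding proteins (SREBPs), which act with the promoter factors NF-Y and Sp1.

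The enzymes did not move as a unit. In the shGDPD5 libraries 5 of the 10 transcripts rose (ACLY, FASN, FADS1, FADS2 and ELOVL5), 4 fell (ACSS2, SCD, ELOVL6 and ELOVL7) and ACACA was not called, with calls set at an adjusted p under 0.05 in edgeR's quasi-likelihood test. Over all genes tested, 59.7% passed in either direction, 29.7% as higher and 30.1% as lower, so 9 of 10 stands against a background in which most genes were called. The log2 fold changes ran from -1.29 (ACSS2) to 0.63 (ACLY). Their median absolute value was 0.40, and that of all tested genes 0.36. Calls were also made at a log2 change of 1 or more in either direction and an edgeR p under 0.05 before adjustment. These cutoffs were met by 12% of all genes, and ACSS2 was the 1 enzyme to pass. The study's methods name that log2 cutoff, without a p beside it. They also name a t test p under 0.05 with a fold above 1.5 or below 0.5. With the edgeR p in its place, 20.2% of all genes met those cutoffs. There ACLY passed as higher and ACSS2 as lower. The study itself reported fewer called genes in each direction than either pair of cutoffs gave here, so these calls do not reproduce its gene list. The libraries of the groups did not overlap in CPM, the count of a gene scaled to a common library size (TMM-normalized), for 9 of the 10, all but ACACA, and for 64.9% of all tested genes.

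The promoters of these genes differ in the factor motifs they hold. RefSeq windows of 300 bases on GRCh38.p14, from 250 bases before to 50 after an annotated start, were matched for 9 of the 10 enzymes, 14 windows in all, and FASN was not matched. The windows were searched on both strands for TCACNCCAC (a sterol regulatory element), CCAAT (bound by NF-Y), GGGCGG (the GC box bound by Sp1) and CACGTG (an E box). The sterol element in this spelling was in 0 of the 14 windows and in 1.13% of all 35116 promoter windows. CCAAT was in 8 of the 14 windows against 34.6% of all, GGGCGG in 11 of 14 against 45% of all, and CACGTG in 1 of 14 against 7.26% of all. The 14 windows are not separate units, because the ACLY windows overlap and hold the same matches, and the FADS2 windows overlap too. By gene, CCAAT was in 6, GGGCGG in 8 and CACGTG in 1 of the 9 enzymes. A match is a string of letters and no evidence of binding. The windows of both acetyl-CoA enzymes and of ELOVL5 and ELOVL7 are shown as examples, picked because the enzymes of each pair moved in opposite directions. They are read 5′ to 3′ on the gene's strand, with every match in capitals. No matches overlap in them. They lie at chr17:41918973-41919272 on the minus strand (ACLY, the first of its 2 overlapping windows), chr20:34874739-34875038 and chr20:34876362-34876661 on the plus strand (ACSS2, windows 1 and 2), chr6:53348901-53349200 on the minus strand (ELOVL5) and chr5:60844220-60844519 on the minus strand (ELOVL7).
ACLY: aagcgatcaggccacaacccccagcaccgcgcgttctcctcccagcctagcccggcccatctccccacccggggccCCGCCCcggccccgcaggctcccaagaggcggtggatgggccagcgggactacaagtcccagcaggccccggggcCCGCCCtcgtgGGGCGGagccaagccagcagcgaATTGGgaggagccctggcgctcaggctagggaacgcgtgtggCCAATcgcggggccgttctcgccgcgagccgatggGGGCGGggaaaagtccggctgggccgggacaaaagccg
ACSS2 window 1: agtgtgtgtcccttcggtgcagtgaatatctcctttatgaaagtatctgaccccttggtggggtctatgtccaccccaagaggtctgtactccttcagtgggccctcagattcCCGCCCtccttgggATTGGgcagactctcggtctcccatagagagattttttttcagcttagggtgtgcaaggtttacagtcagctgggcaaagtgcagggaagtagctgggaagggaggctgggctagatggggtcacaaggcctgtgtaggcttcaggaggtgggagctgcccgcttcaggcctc
ACSS2 window 2: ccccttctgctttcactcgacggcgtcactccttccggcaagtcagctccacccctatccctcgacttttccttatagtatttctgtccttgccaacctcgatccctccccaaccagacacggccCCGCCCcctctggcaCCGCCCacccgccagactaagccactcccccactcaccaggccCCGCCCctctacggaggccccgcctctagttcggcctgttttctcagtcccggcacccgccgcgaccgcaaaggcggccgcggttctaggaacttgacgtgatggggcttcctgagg
ELOVL5: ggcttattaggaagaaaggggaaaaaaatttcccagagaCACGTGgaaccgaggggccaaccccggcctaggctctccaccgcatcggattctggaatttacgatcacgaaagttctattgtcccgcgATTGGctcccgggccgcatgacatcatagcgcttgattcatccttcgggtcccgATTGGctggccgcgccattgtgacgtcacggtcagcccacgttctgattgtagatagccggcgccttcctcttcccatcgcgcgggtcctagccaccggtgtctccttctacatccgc
ELOVL7: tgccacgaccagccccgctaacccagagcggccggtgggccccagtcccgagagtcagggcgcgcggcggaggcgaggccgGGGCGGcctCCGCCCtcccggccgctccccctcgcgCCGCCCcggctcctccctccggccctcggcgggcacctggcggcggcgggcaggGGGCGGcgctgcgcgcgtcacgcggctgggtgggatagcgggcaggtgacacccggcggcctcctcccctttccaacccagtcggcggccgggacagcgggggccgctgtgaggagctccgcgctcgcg
ACLY holds both CCAAT and GC boxes, ELOVL7 holds GC boxes alone, and ELOVL5 holds CCAAT and the E box but no GC box. The first ACSS2 window has 1 CCAAT and 1 GC box, and the second has 3 GC boxes. Of the windows not shown, that of SCD, which fell, holds CCAAT and GC boxes as ACLY does. Those of ELOVL6, which fell, and FADS1, which rose, both hold the GC box alone. Whether any motif goes with a direction of change was not tested.

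The libraries differed little in depth, with 16715447 to 18510670 estimated counts in the shGDPD5 group and 17602320 to 18076702 in the shCtrl group. GDPD5, the targeted gene, had 5.44, 5.55 and 5.19 CPM in the shGDPD5 libraries, against 8.33, 11.6 and 9.75 CPM in the shCtrl libraries, so 54.5% of the control level remained (adjusted p = 0.000116 from edgeR). shCtrl replicate 1 stood apart from the other shCtrl libraries on the second principal component (-28.0, against 14.7 and 13.2), and without it the same counts of 5 higher and 4 lower enzymes were obtained. Of 5 epithelial markers (EPCAM, CDH1, KRT8, KRT18 and KRT19) all were expressed and all 5 fell, beside 30.1% of all tested genes called lower. Their summed level was 2517 to 2625 CPM in the shGDPD5 libraries and 3162 to 3601 CPM in the shCtrl libraries, although KRT8 overlapped between the groups. Of 5 intestinal markers CDX2 alone was tested, and it fell too (log2 fold change -0.31, adjusted p = 0.0194 from edgeR). CDX1 had 0 counts in every library, and VIL1, CDH17 and LGALS4 had at most 10. Of 9 markers of leukocytes, fibroblasts, endothelium and liver, 8 had at most 8 counts and COL1A1 had 323 to 417. In bulk RNA a change in the mix of cells and a change of RNA per cell cannot be told apart. The part of the epithelial marker shift in the results was not tested.

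The 2 sources of cytosolic acetyl-CoA moved apart. ACLY (ENSG00000131473, chromosome 17 from 41866908 to 41930542, minus strand, GENCODE release 29 on GRCh38) had 275.7, 274.9 and 272.5 CPM in the shGDPD5 libraries, against 169.6, 179.0 and 181.7 CPM in the shCtrl libraries. All 3 shGDPD5 libraries were higher than every shCtrl library, and the shGDPD5 values differed among themselves by a coefficient of variation of 0.613%. The log2 fold change was 0.63 (standard error 0.04, 95% interval 0.54 to 0.73, adjusted p = 1.11e-07 from edgeR). ACLY shares 156 exonic bases with an antisense gene, and the use of strand in the counting is not given in the sources used here.

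ACSS2 (ENSG00000131069, chromosome 20 from 34872146 to 34927962, plus strand), which lets cells use acetate, had 29.4, 24.0 and 27.3 CPM in the shGDPD5 libraries, against 62.0, 65.9 and 69.5 CPM in the shCtrl libraries. Its log2 fold change was -1.29 (standard error 0.08, 95% interval -1.46 to -1.13, adjusted p = 2.42e-08 from edgeR), which left 40.8% of the control level. This was the largest change of the 10 in either direction, and 3.90% of all tested genes had a log2 fold change as low or lower. Within each library, depth and scaling cancel in a ratio of counts. That of ACLY to ACSS2 was 9.38, 11.4 and 9.98 in the shGDPD5 libraries, against 2.74, 2.71 and 2.61 in the shCtrl libraries. Such a ratio shows a shift of ACLY against ACSS2 and not the direction of either. The mean ratio was 3.82 times as high in the shGDPD5 group. This ratio was chosen after the values were seen and was not tested.

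**Figure D1:**
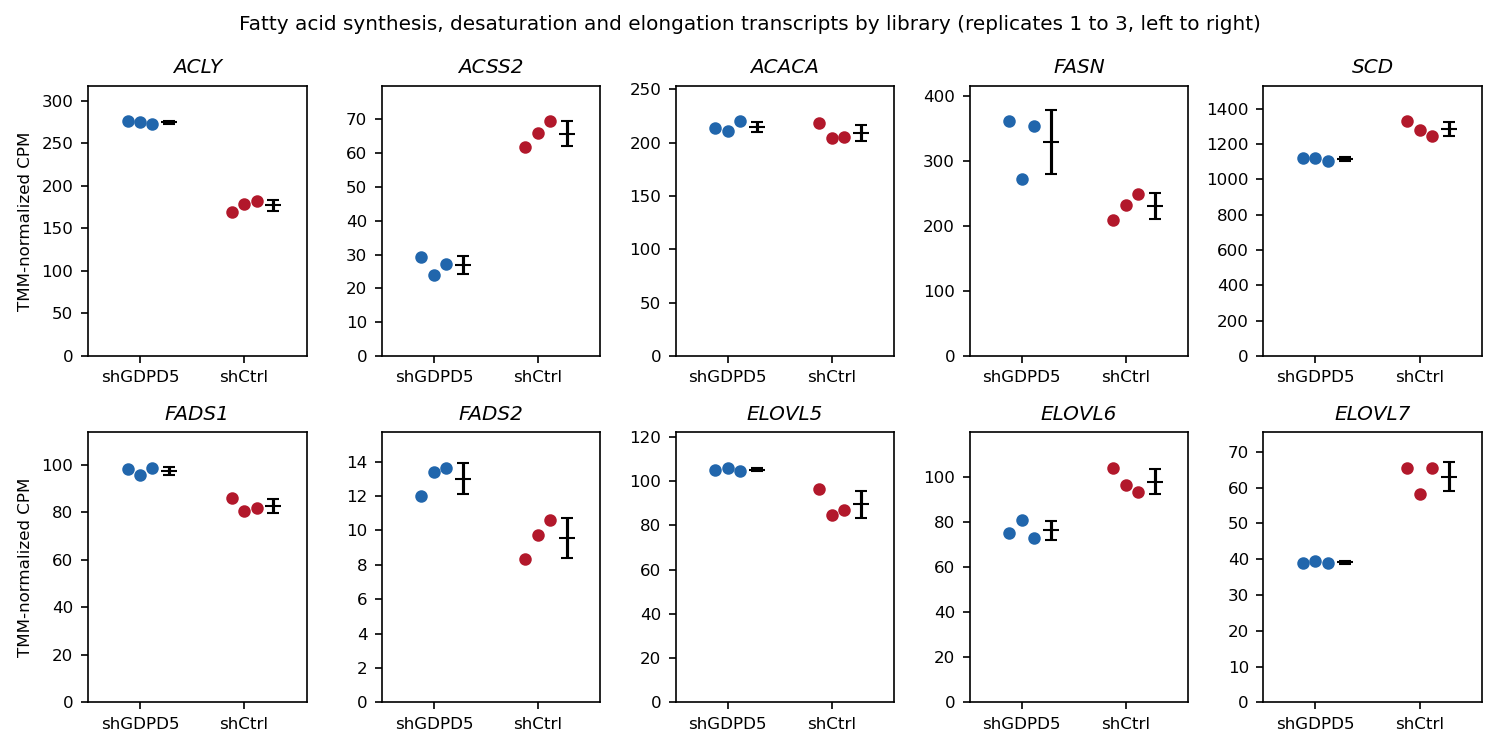
TMM-normalized CPM (y axes, each from 0) of the 10 enzyme transcripts in 3 shGDPD5 (blue, left) and 3 shCtrl (red, right) libraries, replicates 1 to 3 from left to right, with black marks for the mean and SD. ACSS2 lies at 24.0 to 29.4 CPM in the shGDPD5 libraries and 62.0 to 69.5 CPM in the shCtrl libraries, the FASN value of shGDPD5 replicate 2 lies below those of replicates 1 and 3, and ACACA alone overlaps.

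For palmitate synthesis itself, FASN rose and ACACA was not called. FASN (ENSG00000169710, chromosome 17 from 82078333 to 82098332, minus strand) had 360.7, 271.5 and 353.8 CPM in the shGDPD5 libraries, against 209.2, 232.1 and 249.5 CPM in the shCtrl libraries. The groups did not overlap, but shGDPD5 replicate 2 lay nearer to the highest shCtrl library than to the other shGDPD5 libraries. The coefficient of variation in the shGDPD5 group was 15.1%, the largest of the 10 transcripts in either group. The log2 fold change was 0.51 (standard error 0.09, 95% interval 0.31 to 0.72, adjusted p = 0.000501 from edgeR). It was 0.44 without shGDPD5 replicate 1 and 0.63 without shGDPD5 replicate 2, and the adjusted p stayed below 0.05 with any 1 library left out. When each gene was instead tested alone on log2(CPM + 1), without sharing the spread across genes, the adjusted p was 0.056. No gene of the annotation overlaps the FASN span.

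ACACA (ENSG00000278540, chromosome 17 from 37084988 to 37406818, minus strand), the carboxylase that commits acetyl-CoA to fatty acids, had 214.0, 211.1 and 220.2 CPM in the shGDPD5 libraries, against 218.1, 204.8 and 205.6 CPM in the shCtrl libraries. The groups overlapped. The log2 fold change was 0.04 with a 95% interval of -0.06 to 0.14 (adjusted p = 0.494 from edgeR), so a change larger than 0.14 on the log2 scale lies outside that interval at a depth of 3565 to 3955 counts per library. The ratio of FASN to ACACA counts within a library was 1.69, 1.29 and 1.61 in the shGDPD5 libraries and 0.959, 1.13 and 1.21 in the shCtrl libraries. That of FASN to SCD was 0.323, 0.242 and 0.321 in the shGDPD5 libraries and 0.158, 0.182 and 0.200 in the shCtrl libraries.

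**Figure D2:**
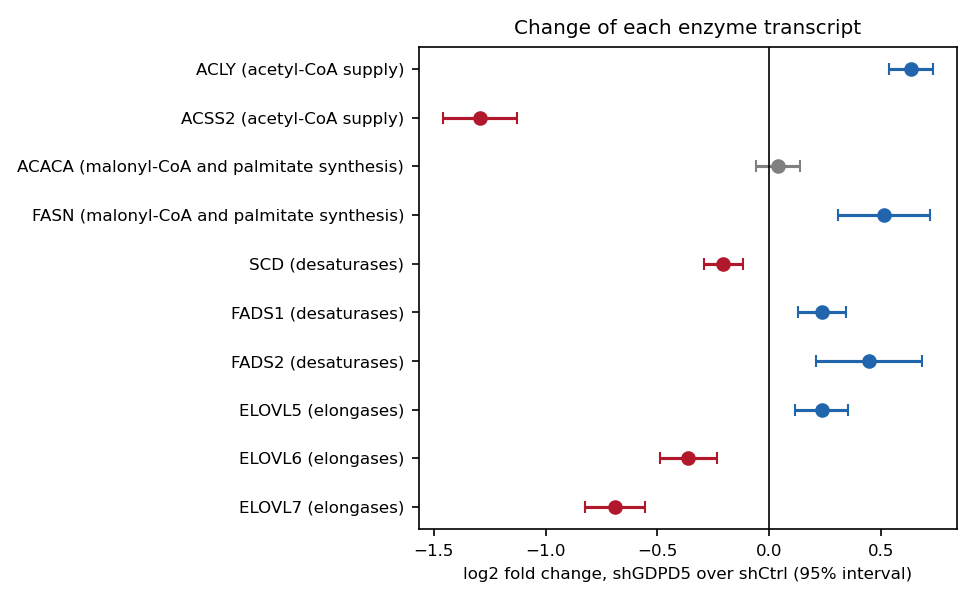
Log2 fold change, shGDPD5 over shCtrl (x axis), of the 10 enzyme transcripts (y axis, with their step in the pathway), as points with 95% intervals from edgeR. Blue points are higher and red points lower at an adjusted p under 0.05, and the grey point, ACACA at 0.04, is neither.

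Among the desaturases, the stearoyl-CoA desaturase fell slightly and the polyunsaturated desaturases rose. SCD (ENSG00000099194, chromosome 10 from 100347124 to 100364834, plus strand), which puts the first double bond into palmitoyl- and stearoyl-CoA, had 1119, 1120 and 1103 CPM in the shGDPD5 libraries, against 1328, 1277 and 1247 CPM in the shCtrl libraries. Every shGDPD5 library was lower than every shCtrl library, by a small step. The log2 fold change was -0.21 (standard error 0.04, 95% interval -0.29 to -0.12, adjusted p = 0.000734 from edgeR). With 19138 to 22810 counts per library, SCD was the most deeply counted of the 10. Its processed pseudogene copy SCDP1 had 0 counts in every library.

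FADS1 (ENSG00000149485), the delta-5 desaturase that makes arachidonic acid, had 98.1, 95.6 and 98.7 CPM in the shGDPD5 libraries, against 86.0, 80.4 and 81.8 CPM in the shCtrl libraries. Its log2 fold change was 0.24 (standard error 0.05, adjusted p = 0.00116 from edgeR). FADS2 (ENSG00000134824), the delta-6 desaturase at the entry of the polyunsaturated route, had 11.98, 13.4 and 13.6 CPM in the shGDPD5 libraries, against 8.33, 9.71 and 10.6 CPM in the shCtrl libraries. Its log2 fold change was 0.45 (standard error 0.11, 95% interval 0.21 to 0.68, adjusted p = 0.00357 from edgeR), and its 143 to 251 counts per library made it the least counted of the 10. Both rose without overlap between the groups. The ratio of FADS2 to FADS1 counts did overlap, at 0.122, 0.140 and 0.138 in the shGDPD5 libraries and 0.0969, 0.121 and 0.130 in the shCtrl libraries.
Their spans overlap on chromosome 11, FADS1 from 61799625 to 61829318 on the minus strand and FADS2 from 61792980 to 61867354 on the plus strand, and share 490 exonic bases. FADS2 also shares 49 exonic bases with FEN1, a flap endonuclease gene of DNA replication on the same strand. FEN1 had 110.7, 112.5 and 108.2 CPM in the shGDPD5 libraries, against 31.3, 33.2 and 34.1 CPM in the shCtrl libraries, a log2 fold change of 1.75 (adjusted p = 1.01e-10 from edgeR). How far FEN1 reads enter the FADS2 count was not tested. TMEM258, whose span ends short of FADS2, fell with a log2 fold change of -0.27.

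The elongases moved in both directions. ELOVL5 (ENSG00000012660, chromosome 6 from 53267398 to 53349179, minus strand), which lengthens polyunsaturated acids, had 104.8, 106.1 and 104.8 CPM in the shGDPD5 libraries, against 96.4, 84.9 and 87.2 CPM in the shCtrl libraries. Its log2 fold change was 0.23 (standard error 0.06, adjusted p = 0.00284 from edgeR), with no overlap of the groups. ELOVL6 (ENSG00000170522, chromosome 4 from 110045846 to 110199199, minus strand), which takes palmitate to stearate, had 74.8, 80.8 and 72.8 CPM in the shGDPD5 libraries, against 103.9, 96.4 and 93.0 CPM in the shCtrl libraries. Its log2 fold change was -0.36 (standard error 0.06, adjusted p = 0.000197 from edgeR). ELOVL6 fell where ELOVL5 rose, each without overlap of the groups.
ELOVL7 (ENSG00000164181, chromosome 5 from 60751791 to 60844389, minus strand), an elongase of saturated and very long chain acids, had 38.9, 39.5 and 38.9 CPM in the shGDPD5 libraries, against 65.6, 58.4 and 65.4 CPM in the shCtrl libraries. Its log2 fold change was -0.69 (standard error 0.06, 95% interval -0.82 to -0.56, adjusted p = 9.57e-07 from edgeR), or 62.0% of the control level. After ACSS2 this was the largest fall among the 10. Within libraries, ELOVL5 to ELOVL6 count ratios were 1.40, 1.31 and 1.44 in the shGDPD5 group and 0.928, 0.880 and 0.937 in the shCtrl group. Those of ELOVL5 to ELOVL7 were 2.70, 2.68 and 2.69 in the shGDPD5 group and 1.47, 1.45 and 1.33 in the shCtrl group. These ratios are a description and were not tested.

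**Figure D3:**
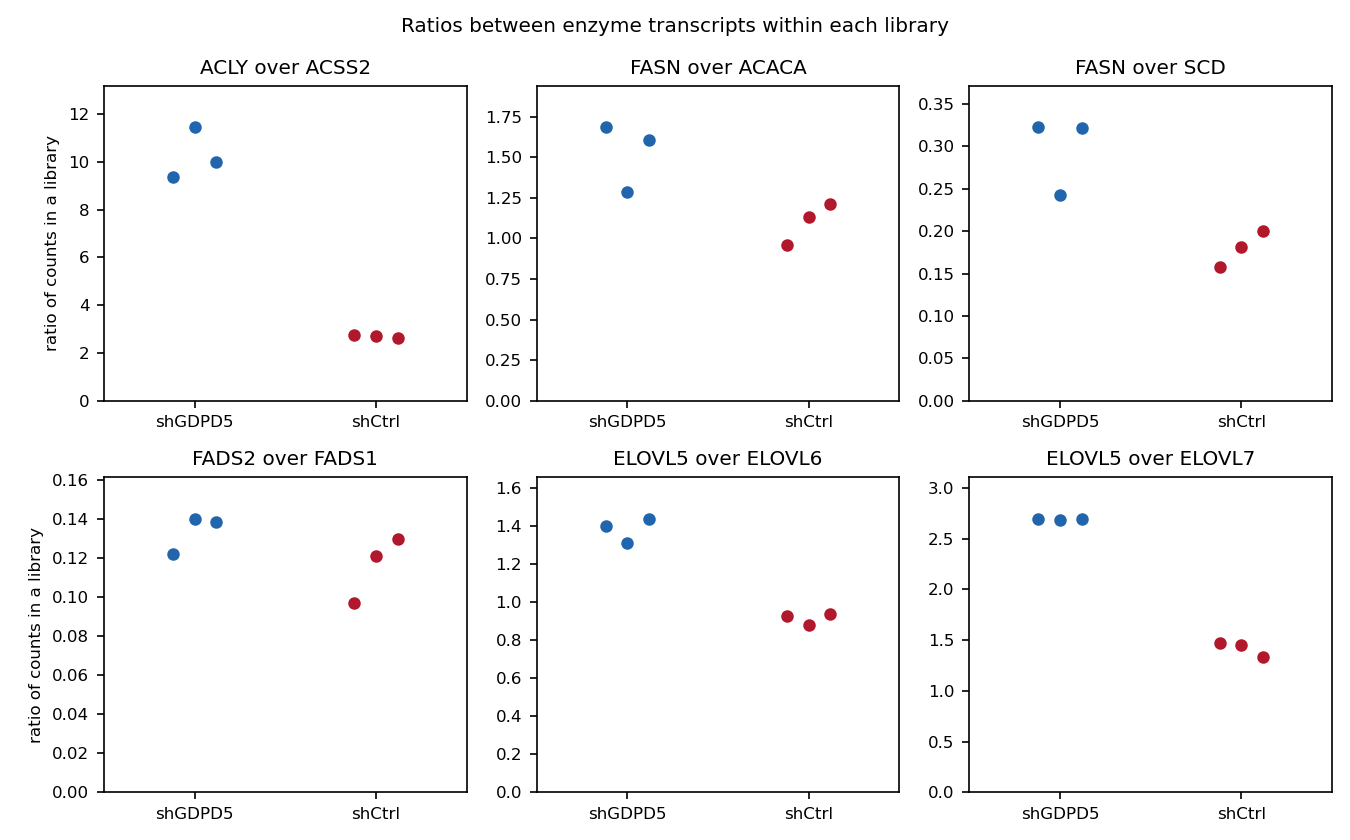
Ratio of the counts of a pair of transcripts within each library (y axes, from 0), for 3 shGDPD5 (blue, left) and 3 shCtrl (red, right) libraries. The ACLY to ACSS2 ratio lies between 9.38 and 11.4 in the shGDPD5 libraries and between 2.61 and 2.74 in the shCtrl libraries, and among the 6 panels the groups overlap in FADS2 over FADS1 alone.

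To compare the enzymes with each other, CPM were divided by the length of the principal transcript in kilobases. In the shCtrl libraries SCD led with 239.5 ± 7.66 CPM per kb (SD, n = 3), followed by ACLY (40.7 ± 1.45), ELOVL5 (31.7 ± 2.16) and FASN (26.9 ± 2.36). ACACA (21.9) and ACSS2 (21.5) came next and overlapped over their libraries, as did ELOVL7 (15.8) and ELOVL6 (15.2), and FADS2 was last with 2.63 CPM per kb. In the shGDPD5 libraries SCD had 207.7 ± 1.78 CPM per kb (SD, n = 3), ACLY 63.2 ± 0.388, FASN 38.4 ± 5.80 and ELOVL5 37.2 ± 0.258, the last pair overlapping over their libraries. ACSS2 had 8.78 CPM per kb there, below both ELOVL6 (11.8) and ELOVL7 (9.79). With the length of all annotated exons in place of the principal transcript, ACSS2 was 8th and FASN 3rd in the shCtrl order.
The summed level of the 10 enzymes was 429.6, 418.6 and 425.4 CPM per kb in the shGDPD5 libraries and 442.2, 429.4 and 430.4 CPM per kb in the shCtrl libraries, ranges that meet at 429.6 and 429.4. What differed was the makeup of that sum. SCD made up 48.3% to 49.9% of it in the shGDPD5 libraries and 54.0% to 56.0% in the shCtrl libraries. ACLY made up 14.8% to 15.1% in the shGDPD5 libraries and 8.84% to 9.73% in the shCtrl libraries, and FASN 7.57% to 9.80% in the shGDPD5 libraries and 5.52% to 6.77% in the shCtrl libraries.

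**Figure D4:**
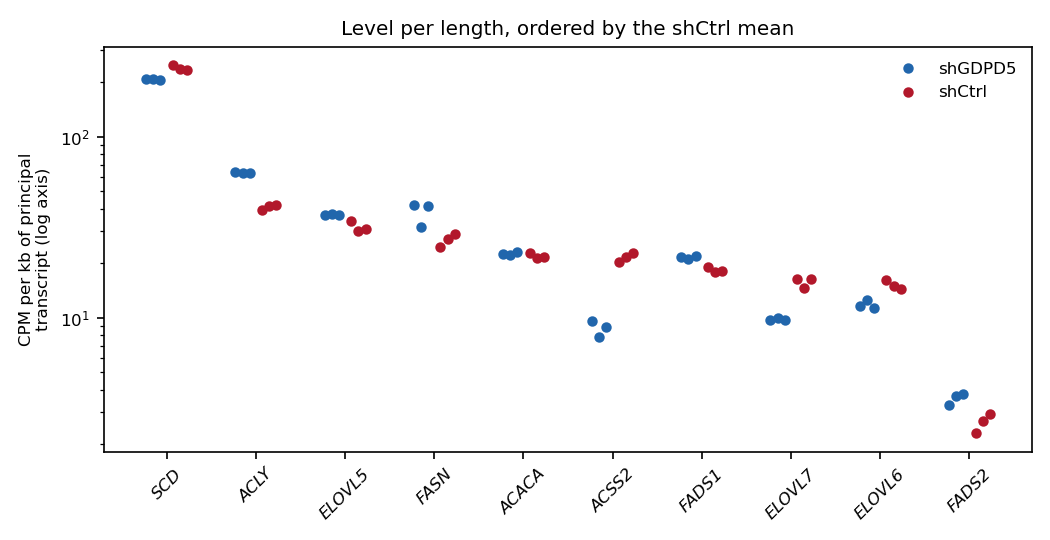
CPM per kilobase of principal transcript (y axis, log scale) of the 10 enzymes (x axis, ordered by the shCtrl mean) in single shGDPD5 (blue, left) and shCtrl (red, right) libraries. SCD stands above all others in both groups, and ACSS2 drops to 8.78 CPM per kb in the shGDPD5 libraries, against 21.5 CPM per kb in the shCtrl libraries.

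The genes around these enzymes were counted in 6 lists by role, 47 genes of which 43 were tested. Of the 43, 13 rose and 17 fell at an adjusted p under 0.05 from edgeR, with a median log2 fold change of -0.07 (0.01 over all tested genes). The other 13 were not called. Over all tested genes 59.7% were called, 29.7% as higher and 30.1% as lower. The counts of each list below are to be read beside these shares. Tested alone on log2(CPM + 1), 8 of the 43 passed as higher and 15 as lower. ACSS1, ELOVL2, ELOVL4 and HACD4 were too low to test.

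Of 6 tested genes that supply citrate, acetyl-CoA or NADPH, 3 rose and 2 fell. CS, the mitochondrial citrate synthase, averaged 235.6 ± 3.18 CPM in the shGDPD5 libraries and 166.6 ± 2.01 CPM in the shCtrl libraries (SD, n = 3 each), a log2 fold change of 0.50. PGD, which yields NADPH in the pentose phosphate pathway, averaged 177.0 ± 2.56 CPM in the shGDPD5 libraries and 118.0 ± 8.88 CPM in the shCtrl libraries (log2 fold change 0.59). IDH1, the cytosolic isocitrate dehydrogenase that also yields NADPH, went the other way, with 151.2 ± 3.04 CPM in the shGDPD5 libraries and 329.7 ± 11.6 CPM in the shCtrl libraries (log2 fold change -1.12, adjusted p = 9.08e-10 from edgeR).
The next list held 7 genes, the carboxylase paralog ACACB together with cofactor, malonyl-CoA turnover and regulator genes of acetyl-CoA carboxylase, of which 1 rose (ACACB) and 4 fell. HLCS, the ligase that attaches biotin to carboxylases, averaged 37.1 ± 1.35 CPM in the shGDPD5 libraries and 79.7 ± 1.37 CPM in the shCtrl libraries (log2 fold change -1.10, adjusted p = 4.52e-09 from edgeR). MID1IP1, which promotes polymerization of the carboxylase, had a log2 fold change of -0.76, and PRKAA1, a catalytic subunit of AMPK, which phosphorylates and inhibits the carboxylase, had -0.48, both past the test. ACACB, which acts at the mitochondrial surface, rose by 0.45 on the log2 scale, at 8.67 CPM in the shGDPD5 libraries and 6.36 CPM in the shCtrl libraries.

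Of 7 genes of the FASN partner enzyme and the mitochondrial fatty acid synthase, 1 rose and 3 fell. AASDHPPT, which adds the phosphopantetheine arm to FASN, fell by 0.22 on the log2 scale (adjusted p = 0.0117 from edgeR), whereas FASN rose. Without shCtrl replicate 1 the AASDHPPT log2 fold change was -0.14, and without shGDPD5 replicate 1 its adjusted p from edgeR was 0.0498. Of the mitochondrial enzymes, MECR had -0.66 and MCAT 0.50, both past the test, at 12.3 and 14.3 CPM in the shGDPD5 libraries and 19.5 and 10.1 CPM in the shCtrl libraries.
Of 7 tested genes among the other elongases and elongation cycle enzymes, 4 rose and 1 fell. Each round needs a reductase, a dehydratase and a second reductase besides an ELOVL enzyme. TECR, which catalyses the last step, averaged 90.0 ± 2.45 CPM in the shGDPD5 libraries and 47.4 ± 7.17 CPM in the shCtrl libraries (log2 fold change 0.92, adjusted p = 1.63e-06 from edgeR). HACD3, a dehydratase, rose by 0.45 on the log2 scale and HSD17B12, the ketoacyl reductase, had -0.28, both past the test. Of the other elongases, ELOVL1 rose by 0.25 and ELOVL3 by 0.56 on the log2 scale. The ELOVL1 value was 0.17 without shCtrl replicate 1. ELOVL3 had only 4.74 to 6.67 CPM in the shGDPD5 libraries and 3.32 to 4.27 CPM in the shCtrl libraries, and its adjusted p was 0.0771 without shGDPD5 replicate 2 and 0.0501 without shCtrl replicate 2.
Of 5 further desaturases and electron donors, 2 rose and 1 fell. SCD5, the second human stearoyl-CoA desaturase, rose by 0.33 on the log2 scale while SCD fell, at 36.8 ± 1.58 CPM in the shGDPD5 libraries and 29.4 ± 1.37 CPM in the shCtrl libraries (SD, n = 3 each). FADS3, the neighbour of FADS2 in the cluster, had -0.60, at 30.4 ± 1.59 CPM in the shGDPD5 libraries and 45.9 ± 4.66 CPM in the shCtrl libraries, whereas FADS1 and FADS2 rose. CYB5R3, which passes electrons to the desaturases by way of cytochrome b5, rose by 0.48 on the log2 scale.

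**Figure D5:**
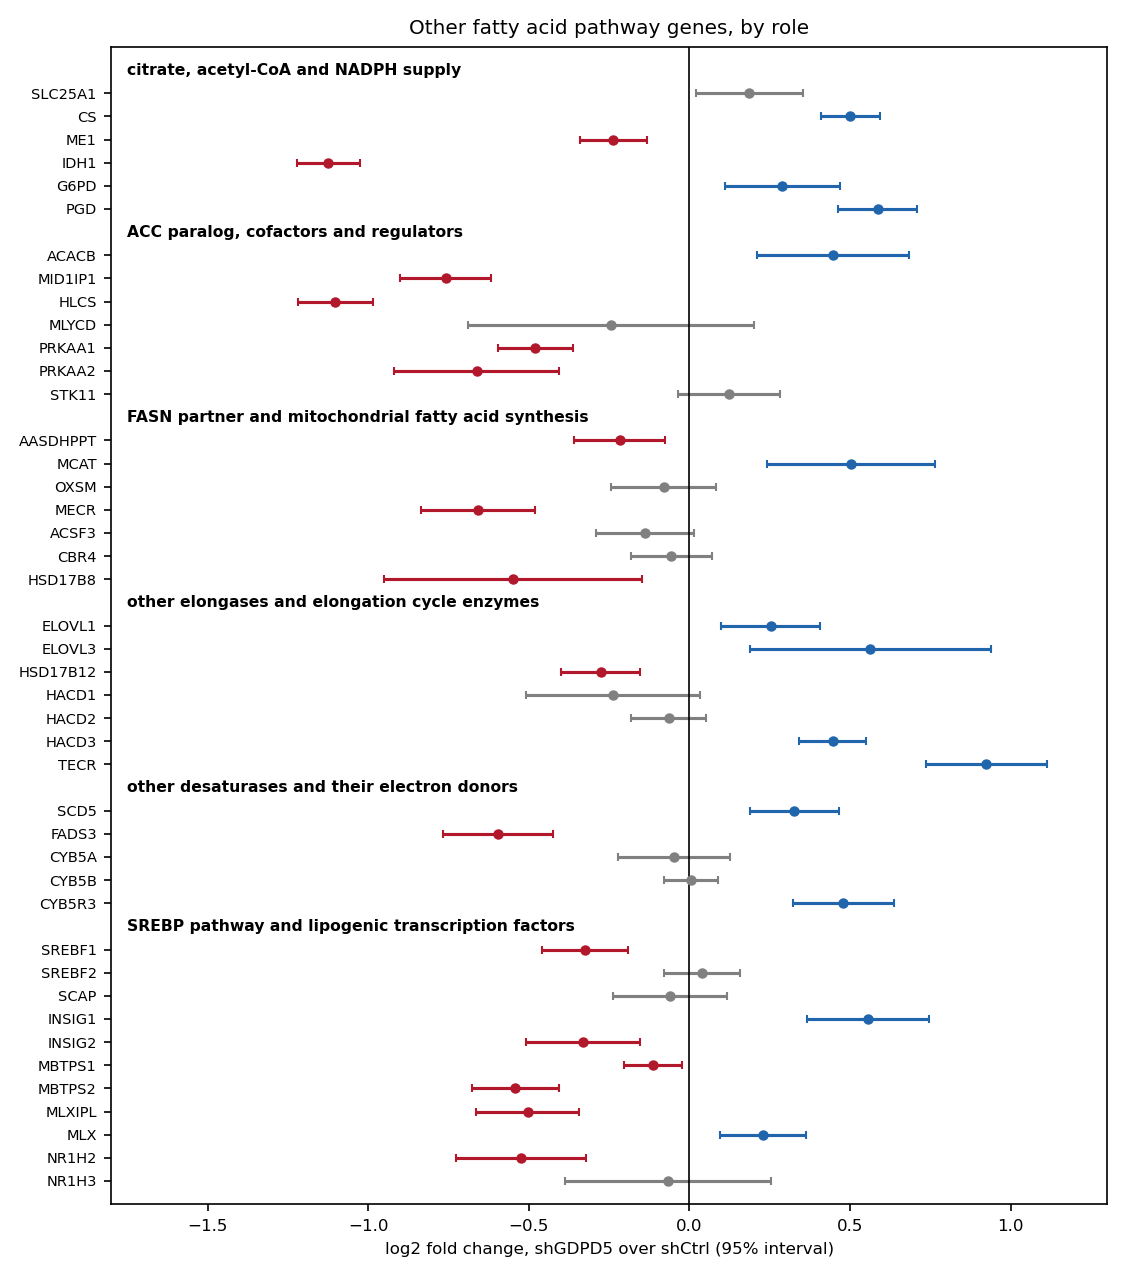
Log2 fold change, shGDPD5 over shCtrl (x axis), with 95% intervals from edgeR, of the 43 tested genes of the 6 lists around the 10 enzymes (y axis, grouped by role). Blue points are higher and red points lower at an adjusted p under 0.05, grey points are neither, and both colours appear in every list.

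Of 11 genes of the SREBP pathway and related lipogenic factors, 2 rose and 6 fell, beside 29.7% and 30.1% of all tested genes. SREBF1, which encodes the SREBP most tied to fatty acid genes, had 84.9, 79.8 and 85.4 CPM in the shGDPD5 libraries, against 95.9, 105.3 and 112.2 CPM in the shCtrl libraries (log2 fold change -0.32, adjusted p = 0.000608 from edgeR). SREBF2, tied more to cholesterol genes, had a log2 fold change of 0.04 with a 95% interval of -0.08 to 0.16, and SCAP, the escort protein, -0.06 with an interval of -0.24 to 0.12, neither past the test. INSIG1, which retains SCAP in the endoplasmic reticulum and is itself an SREBP target, had 26.4, 28.1 and 28.5 CPM in the shGDPD5 libraries, against 20.1, 16.3 and 20.2 CPM in the shCtrl libraries, a log2 fold change of 0.56 (adjusted p = 0.000134 from edgeR). INSIG2, its paralog, had -0.33. MBTPS2, the site-2 protease that releases SREBPs, had -0.54, and MLXIPL, which encodes the carbohydrate response factor ChREBP, -0.50, both past the test. SREBF1 and INSIG1 therefore moved in opposite directions, as did the enzyme genes themselves.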

How the data were processed

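RNA-seq of 6 HCT116 libraries (3 shGDPD5, 3 shCtrl, grouped by their labels) was analysed. The deposited values are estimated counts for each gene, which the authors left unnormalized. How reads were aligned and counted, on which build and with what use of strand, is not given in the sources used here, so overlapping genes may share counts. Estimated counts were rounded to whole numbers, filtered with edgeR's default filter (minimum count 10), scaled by TMM and tested with edgeR 4.0.16 (quasi-likelihood, R 4.3.3) over 16755 genes with Benjamini-Hochberg adjustment. The 95% intervals come from that fit.

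The fit was repeated with DESeq2 1.42.0, voom in limma 3.58.1, each gene tested alone on log2(CPM + 1), and RLE or upper quartile scaling. Further repeats used no filter, a stricter filter (10 counts in all libraries), a replicate block, and each library left out. Calls were also counted at pairs of edgeR p and fold cutoffs built on those in the study's methods. The pair with folds of 1.5 and 0.5 was chosen after seeing the data. The members and lists were chosen with earlier results of these data known. Named were the 10 enzymes, GDPD5, 5 SREBP regulators, paralogs, up to 3 genes of smallest adjusted p in each list, and genes overlapping or neighbouring a member. Positions and lengths are from GENCODE release 29 on GRCh38, with the longest principal transcript for levels per length.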

Additional observations from a re-analysis of the deposited data

How the results depend on the processing

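The 10 enzymes kept their direction and their side of an adjusted p of 0.05 in 139 of 140 combinations of enzyme and alternative. The exception was FASN when each gene was tested alone on log2(CPM + 1), where the log2 fold change was 0.50 (adjusted p = 0.056). The 5 higher and 4 lower enzymes were found with each library left out in turn, and 4 higher and 4 lower with that test. At an unadjusted p under 0.05 with a log2 change of 1 or more, 0 enzymes were higher and 1 lower, 0 and 2 (IDH1 and HLCS) of the genes around them, and 902 and 1105 of all genes. At that p with a fold above 1.5 or below 0.5, a choice made after seeing the data, 1 enzyme was higher (ACLY) and 1 lower (ACSS2), 2 (PGD and TECR) and 2 of the genes around them, and 2273 and 1105 of all genes. Of the genes around them, 8 were higher with the per-gene test, and 12 to 14 higher and 15 to 18 lower with 1 library left out. Same-numbered libraries did not deviate together (correlations of -0.070, -0.052 and -0.041), so the numbers were not taken as pairs. With the replicate block, 5 enzymes were higher and 4 lower, FASN had a log2 fold change of 0.51, and 4792 of all genes were higher and 4853 lower. Values close to 0 changed sign with 1 library left out: SREBF2 ranged from -0.0041 (without shCtrl replicate 1) to 0.075 (without shGDPD5 replicate 3), and SCAP from -0.15 (without shCtrl replicate 1) to 0.021 (without shCtrl replicate 3). INSIG2, ELOVL1, ELOVL3, MCAT and AASDHPPT did not pass with the per-gene test (adjusted p of 0.0605, 0.0801, 0.0868, 0.0523 and 0.0995). Depth limits FADS2 most among the 10 enzymes.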
